A study of Rattus norvegicus with 6 samples.

Results

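The genes described here are those that build the mitotic spindle, attach it to chromosomes, separate the sister chromatids and divide the cell. They were chosen by function, as a list of 58 genes in 9 roles, and 54 of them were present among the 15388 genes counted in the thyroid of the rat. Ccnb2, Nek2, Pttg1 and Cks2 were not analysed here. The study sequenced polyadenylated RNA of thyroid tissue of adult Sprague-Dawley rats and compared animals that were non-pregnant (NP, 3 libraries) with animals on day 18 of gestation, called late pregnancy (LP, 3 libraries). The labels name no treatment or allele, and pregnancy was the only labelled difference between the groups. The question was which genes change in the maternal thyroid during pregnancy, and the mitotic genes bear on the part of it that concerns dividing cells. Several members belong to the cell cycle genes that the study drew from these same libraries, so their counts are not independent evidence of a direction.

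Mitosis is started by Cdk1 bound to a cyclin. Polo-like and Aurora kinases then mature the spindle poles, and kinesin motors and microtubule-binding proteins build the spindle, which is a bipolar array of microtubules. The kinetochore, a protein assembly on the centromere, holds each chromosome to the microtubules. A checkpoint delays the anaphase-promoting complex (APC/C), a ubiquitin ligase, until all chromosomes are attached. Cytokinesis then divides the cell, with the centralspindlin complex among the proteins that act in it. Transcripts of many of these genes accumulate late in the cell cycle and are scarce in resting cells, and follicular cells of the adult thyroid divide rarely.

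Library totals were 2752144 to 2965936 reads in NP and 3224104 to 3449857 reads in LP. Replicates 2 and 3 of each group agreed within sampling noise (chi-square per degree of freedom 1.02 in NP and 0.995 in LP, against 3.70 to 4.11 for replicate 1 with either), and they were counted as 1 sample. Each group therefore had n = 2, replicate 1 and the sum of replicates 2 and 3, and although the labels count 3 rats per group they do not tie a library to an animal, so the p-values measure only the spread between these samples, which may be technical. Read numbers below are given for replicates 1, 2 and 3 in that order. A gene was called higher or lower in LP at an adjusted p below 0.05 in edgeR's quasi-likelihood test over all 15388 genes with Benjamini-Hochberg adjustment, and fold changes are log2 ratios of LP over NP with their standard error (SE). In such tissue samples, fewer cells of a type and less RNA per cell cannot be told apart.

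The mitotic genes were mostly higher in LP, from very few reads in NP. Of the 54 genes, 29 were called higher and 1, Tpx2, lower, while 24 were not called. Over all genes 10.2% were called higher and 7.28% lower. The 25 genes that also exceeded a 2-fold change were all higher in LP, against a background of 4.17%. The count of calls depends on the tool. On the same 4 samples DESeq2 called 9 of the 52 members that it tested higher, and 22 of 53 on the 6 libraries as deposited. Of all genes that it tested, it called 5.92% and 8.53% higher. Every LP library lay above every NP library for 42 of the 54 genes, against 18.2% of all genes. The median log2 fold change of the 54 genes was 1.43, with a range from −0.42 to 4.35, and the median of all genes was −0.01. Within the replicate numbers, the median log2 ratio was 1.80 in replicate 1 and 1.17 in the summed replicates 2 and 3, and 45 genes were higher in LP in both.

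**Figure D1:**
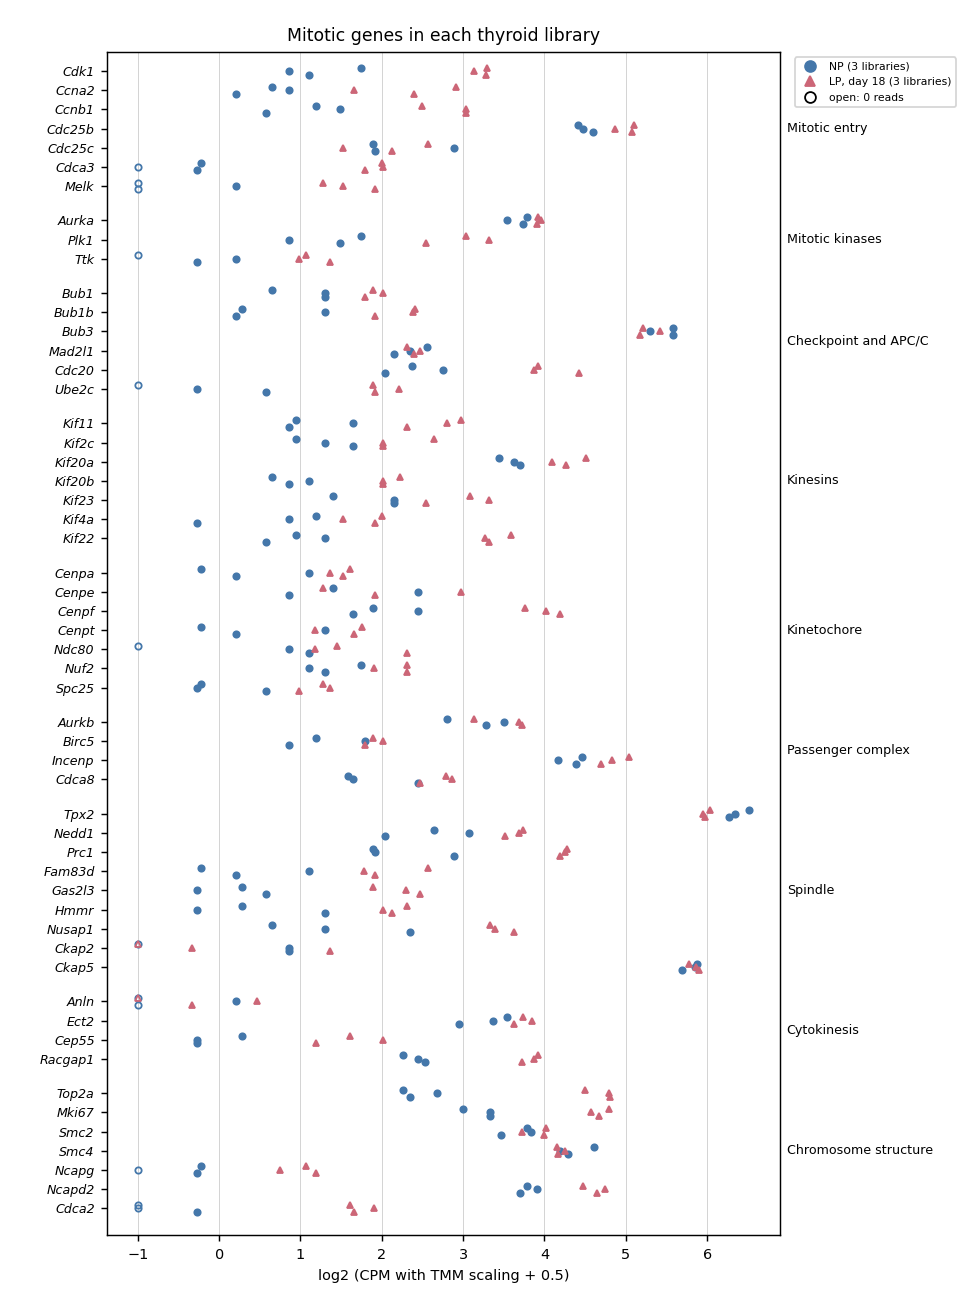
Level of each of the 54 genes in every library, as log2 of CPM (counts per 1000000 library reads, TMM-scaled) plus 0.5, arranged by role, with NP libraries as circles, LP libraries as triangles and open symbols for 0 reads. The LP libraries lie to the right of all NP libraries in 42 genes, whereas Tpx2 shows the opposite order and 11 genes overlap.

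The level in NP was at the limit of what these libraries can count. In 31 of the 54 genes NP libraries held a mean of under 10 reads, and a level of 3 reads corresponds to 0.87 to 1.09 CPM. Calls were made in both classes of mean reads, a mean that takes in the reads of both groups. Among the 31 genes with a mean of 10 or more reads over the 6 libraries, 18 were called higher and 1 lower. Of all genes with such a mean 12.6% were called higher. In NP, 8 of these 31 genes held a mean under 10 reads, so they reached this class through their LP reads. Among the 23 genes with a mean under 10 reads, 11 were called higher, where 2.54% of all genes with such a mean were. The median log2 fold changes of the 31 and the 23 genes were 0.86 and 1.91, so the largest folds came from the genes with the fewest reads, and their errors were the widest. These shares are not at like depth. All genes under 10 reads had median means of 1.67 reads in NP and 2.33 in LP, against 2.67 and 10 for the 23 genes. All genes at 10 or more reads had 81 and 94, against 14.3 and 45.7 for the 31 genes.

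**Figure D2:**
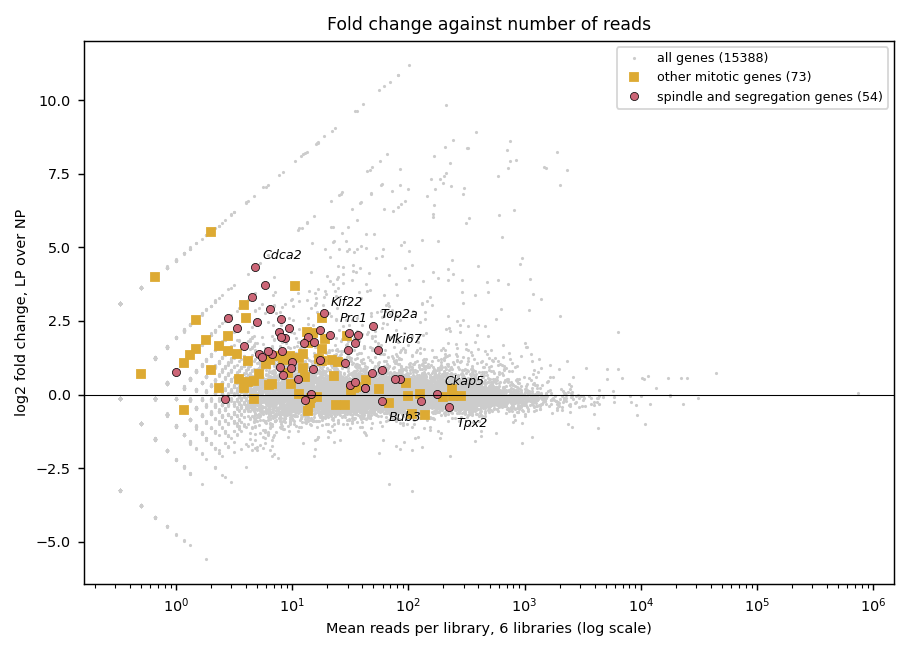
Fold change of LP over NP (log2) against mean reads per library on a log axis, for all 15388 genes in grey, the 54 spindle and segregation genes as circles and 73 other mitotic genes as squares. The folds of the mitotic genes lie mostly above 0 and widen toward low read numbers, and the best-counted members, Tpx2, Ckap5 and Bub3, lie near or below 0, while the diagonal rays are genes without reads in 1 group.

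Genes of mitotic entry were higher as a group, with 6 of 7 called. The calls of this and the following roles are read beside the 10.2% of all genes called higher. Cdk1 (ENSRNOT00000000783), the kinase whose activity drives cells into mitosis, had 8, 4 and 5 reads in NP against 29, 28 and 31 in LP. The groups were well apart, and the log2 fold change was 2.18 (SE 0.356, adjusted p = 1.55e-04, edgeR). Its cyclin partners moved in the same direction. Ccnb1, the B-type cyclin, had 5, 7 and 3 reads in NP against 16, 26 and 26 in LP (log2 1.97, SE 0.393, adjusted p = 0.00118, edgeR). Ccna2, which also acts in S phase, had 3, 4 and 2 reads in NP against 22, 9 and 16 in LP (log2 2.25, SE 0.513, adjusted p = 0.00366, edgeR). LP replicate 1 was the highest library of Ccna2 and LP replicate 2 the lowest of its group. Cdca3, which promotes the degradation of Wee1 at mitotic entry, was nearly absent from NP with 1, 0 and 1 reads and had 11, 12 and 10 in LP. The ratio of LP over NP in CPM was 14.8, with a 95% counting interval of 3.77 to 127, and the adjusted p was 8.61e-04 (edgeR). Melk, a kinase of proliferating cells, had 0, 2 and 0 reads in NP against 6, 8 and 11 in LP. Its ratio was 11.2, with a counting interval of 2.79 to 97.3 (adjusted p = 0.00717, edgeR).

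Cdc25b and Cdc25c are phosphatases that activate Cdk1. Cdc25b had 58, 66 and 72 reads in NP against 106, 97 and 112 in LP, without overlap (log2 0.54, SE 0.133, adjusted p = 0.0072, edgeR). Cdc25c had 9, 21 and 10 reads in NP against 17, 8 and 13 in LP. Its groups overlapped, with NP replicate 2 above every LP library, and the adjusted p was 0.841 (edgeR). The ratios had counting intervals of 1.20 to 1.73 for Cdc25b and 0.53 to 1.36 for Cdc25c, and the difference between them was not tested.

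Of the mitotic kinases, Plk1, the polo-like kinase of spindle poles and kinetochores, was called. It had 8, 4 and 7 reads in NP against 24, 32 and 18 in LP, and every LP library held more than the highest NP library (log2 1.78, SE 0.355, adjusted p = 0.00117, edgeR). Aurka, the kinase of the spindle pole, was not called. Its libraries held 37, 34 and 39 reads in NP against 46, 51 and 49 in LP, and the adjusted p was 0.472 (edgeR). The ratio of its CPM was 1.19 with a counting interval of 0.92 to 1.53, whereas the ratio of Plk1 was 3.48 (2.08 to 6.11). The difference between these ratios was not itself tested. Ttk, the kinase that starts checkpoint signalling, held 0, 2 and 1 reads in NP against 5, 5 and 7 in LP (adjusted p = 0.0791, edgeR).

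Of 6 checkpoint and APC/C genes 3 were called higher. Cdc20, the activator that the checkpoint holds back, had 13, 19 and 11 reads in NP against 46, 48 and 71 in LP. All LP libraries lay above the NP libraries, LP replicate 3 the highest, and the log2 fold change was 1.76 (SE 0.24, adjusted p = 2.06e-05, edgeR). Ube2c, the ubiquitin-conjugating enzyme of the APC/C, rose from 0, 1 and 3 reads to 10, 14 and 11 (log2 2.90, SE 0.663, adjusted p = 0.00374, edgeR). Bub1b, the checkpoint protein BubR1, rose from 2, 6 and 2 reads to 15, 16 and 11 (log2 1.91, SE 0.483, adjusted p = 0.00823, edgeR). Bub3, Mad2l1 and Bub1 were not called. Bub3 had 132, 118 and 144 reads in NP against 114, 144 and 120 in LP, so its groups overlapped (log2 −0.23, SE 0.104, adjusted p = 0.144, edgeR). Mad2l1, the Mad2 protein that binds Cdc20, had 15, 14 and 12 reads in NP against 14, 17 and 16 in LP. Its ratio was 1.02 with a counting interval of 0.66 to 1.60, whereas that of Cdc20 was 3.43 (2.44 to 4.92), and the difference was not tested. Bub1 had 3, 6 and 6 reads in NP against 10, 12 and 10 in LP and did not pass the test (adjusted p = 0.207, edgeR).

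In the 7 motors listed as kinesins here, every LP library was above every NP library (18.2% of all genes). Of the 7, 5 were called (10.2% of all genes). Cenpe, also a kinesin, is given with the kinetochore. Kif22, the chromosome-binding kinesin Kid, had 4, 6 and 3 reads in NP against 36, 31 and 32 in LP. The LP libraries were close to each other and far from NP (log2 2.77, SE 0.353, adjusted p = 8.59e-06, edgeR). Kif11, the Eg5 motor that pushes spindle poles apart, rose from 4, 8 and 4 reads to 23, 22 and 15 (log2 1.77, SE 0.394, adjusted p = 0.00305, edgeR). Kif23, the motor of centralspindlin, rose from 6, 12 and 12 reads to 25, 32 and 18 (log2 1.18, SE 0.327, adjusted p = 0.0154, edgeR). Kif20a and Kif20b are related motors of the spindle midzone. Kif20a had 29, 36 and 38 reads in NP against 70, 56 and 63 in LP (log2 0.75, SE 0.196, adjusted p = 0.0105, edgeR). Kif20b had 3, 5 and 4 reads in NP against 13, 12 and 12 in LP (log2 1.47, SE 0.471, adjusted p = 0.0374, edgeR). Kif2c, a microtubule depolymerase of the centromere, held 4, 6 and 8 reads in NP against 18, 12 and 12 in LP. Kif4a, a chromosome-bound motor, held 5, 4 and 1 reads in NP against 11, 8 and 11 in LP. Neither Kif2c (adjusted p = 0.0975, edgeR) nor Kif4a (adjusted p = 0.088, edgeR) passed the threshold. The calls of 3 motors were not firm. Kif23 had an adjusted p of 0.096 without LP replicate 2 (edgeR). Kif20b was not called without NP replicate 3, LP replicate 2 or LP replicate 3 (edgeR). On the same 4 samples DESeq2 called none of Kif20a, Kif20b and Kif23 (adjusted p = 0.223, 0.487 and 0.304, DESeq2).

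Kinetochore genes had few reads, and 1 of 7 was called (14.3%, against 10.2% of all genes). Cenpf, a large protein of the outer kinetochore, had 9, 15 and 8 reads in NP against 41, 53 and 60 in LP, with no overlap between groups (log2 2.08, SE 0.266, adjusted p = 8.92e-06, edgeR). Cenpe, the kinetochore kinesin, overlapped between groups with 6, 15 and 4 reads in NP against 6, 25 and 11 in LP (adjusted p = 0.478, edgeR), and replicate 2 was its highest library in both groups. The other 5 were Cenpa, the centromeric histone, Cenpt, which links it to the outer kinetochore, and Ndc80, Nuf2 and Spc25, which are subunits of the complex that grips microtubules. These 5 held 0 to 8 reads per NP library and 5 to 15 per LP library, their log2 fold changes ran from 0.90 to 1.65, and their adjusted p-values from 0.128 to 0.172 (edgeR).

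Of the chromosomal passenger complex, which corrects faulty attachments, 1 of 4 genes was called. Incenp, its scaffold, had 60, 53 and 62 reads in NP against 101, 95 and 86 in LP (log2 0.54, SE 0.148, adjusted p = 0.0157, edgeR). DESeq2 did not call Incenp on the same 4 samples (adjusted p = 0.369, DESeq2). Aurkb, the kinase of the complex, had 18, 33 and 28 reads in NP against 26, 42 and 43 in LP. The groups of Aurkb overlapped because LP replicate 1 lay below NP replicates 2 and 3 (adjusted p = 0.472, edgeR). Its ratio was 1.26 with a counting interval of 0.933 to 1.70. Cdca8, the borealin subunit, had 7, 8 and 15 reads in NP against 20, 23 and 17 in LP (adjusted p = 0.0948, or 0.0322 without NP replicate 3, edgeR). Birc5, the survivin subunit, had 5, 9 and 4 reads in NP against 10, 12 and 10 in LP (adjusted p = 0.366, edgeR).

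Among 9 genes of the spindle and its microtubules, 6 were called higher and 1 lower. Prc1 (ENSRNOT00000017532), which bundles the antiparallel microtubules of the midzone, had 9, 10 and 21 reads in NP against 59, 63 and 60 in LP. Its LP libraries were nearly equal and lay far above NP replicate 3, the highest of NP (log2 2.04, SE 0.243, adjusted p = 3.65e-06, edgeR). Nusap1, which links microtubules to chromosomes, rose from 3, 6 and 14 reads to 30, 34 and 40 (log2 2.02, SE 0.344, adjusted p = 2.44e-04, edgeR). Nedd1, which recruits the gamma-tubulin ring complex to spindle poles, rose from 16, 24 and 11 reads to 40, 42 and 37 (log2 1.07, SE 0.244, adjusted p = 0.00376, edgeR). Hmmr, Fam83d and Gas2l3 were also called. Hmmr went from 2, 1 and 6 reads to 14, 12 and 13 (log2 1.95), Fam83d from 1, 5 and 2 to 17, 10 and 11 (log2 2.12), and Gas2l3 from 2, 1 and 3 to 10, 15 and 17 (log2 2.57), without overlap. The adjusted p (edgeR) was 0.0618 for Hmmr without NP replicate 2. On the same 4 samples DESeq2 called none of Hmmr, Fam83d and Gas2l3 (adjusted p = 0.232, 0.165 and 0.124, DESeq2). Hmmr binds spindle microtubules and Fam83d recruits a casein kinase to the spindle, while Gas2l3 links actin and microtubules.

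Tpx2 (ENSRNOT00000010851), which activates Aurka on spindle microtubules, differed from all of these. It had 255, 246 and 234 reads in NP against 204, 207 and 210 in LP, so every LP library lay below every NP library although LP totals were larger. The log2 fold change was −0.42 (SE 0.0877, adjusted p = 0.00186, edgeR). Ckap5, the microtubule polymerase chTOG, had 163, 174 and 156 reads in NP against 170, 195 and 199 in LP. Its ratio of CPM was 1.02 with a counting interval of 0.905 to 1.16, so that a 2-fold change lay outside the interval. Ckap2 had at most 7 reads in any library and gave no usable fold.

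In cytokinesis, Racgap1, the GTPase-activating partner of Kif23 in centralspindlin, had 12, 15 and 16 reads in NP against 46, 48 and 43 in LP. The groups were clearly apart (log2 1.52, SE 0.247, adjusted p = 1.48e-04, edgeR). Cep55, the midbody protein that recruits the abscission machinery, had 2, 1 and 1 reads in NP against 8, 12 and 6 in LP (log2 2.46, SE 0.674, adjusted p = 0.0145, or 0.079 without LP replicate 2, edgeR). Ect2, the exchange factor that Racgap1 binds, had 31, 30 and 22 reads in NP against 40, 47 and 40 in LP (adjusted p = 0.219, edgeR). Anln, which encodes anillin, had at most 3 reads in any library.

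Of 7 genes of chromosome structure 4 were called higher. Top2a (ENSRNOT00000085344), the topoisomerase that untangles sister chromatids, had 12, 18 and 14 reads in NP against 69, 92 and 93 in LP. The level was 4.78 ± 0.706 CPM in NP and 24.6 ± 3.80 in LP (SD, n = 2 per group, TMM-scaled), with no overlap. The log2 fold change was 2.34 (SE 0.219, adjusted p = 1.37e-07, edgeR), the smallest adjusted p of the 54 genes, and the counting interval of the ratio was 3.74 to 7.28. Mki67 (ENSRNOT00000038176), which encodes the Ki-67 antigen that coats mitotic chromosomes, had 21, 29 and 29 reads in NP against 85, 79 and 84 in LP. Its level was 8.53 ± 1.47 CPM in NP and 25.5 ± 2.09 in LP (SD, n = 2 per group), and the log2 fold change was 1.51 (SE 0.188, adjusted p = 6.09e-06, edgeR). Cdca2, which directs a phosphatase to chromosomes, had 0, 0 and 1 reads in NP against 8, 11 and 9 in LP. It gave the highest fold of the 54 genes, and with 1 read in NP its ratio of 25.03 had a counting interval of 4.14 to 1020 (adjusted p = 0.00129, edgeR).

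Of the condensin subunits 1 of 4 was called. Ncapd2, of condensin I, had 37, 44 and 38 reads in NP against 68, 89 and 83 in LP (log2 0.84, SE 0.168, adjusted p = 0.00123, edgeR). Ncapg, of the same complex, had 1, 0 and 1 reads in NP against 5, 4 and 6 in LP (adjusted p = 0.0578, edgeR). The core ATPases, Smc2 and Smc4, overlapped between groups. Smc2 had 37, 42 and 32 reads in NP against 49, 43 and 52 in LP (adjusted p = 0.528, edgeR), and its ratio was 1.16 with a counting interval of 0.899 to 1.5. Smc4 had 67, 54 and 58 reads in NP against 54, 63 and 59 in LP (adjusted p = 0.468, edgeR), and its ratio was 0.879 with an interval of 0.71 to 1.09.

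**Figure D3:**
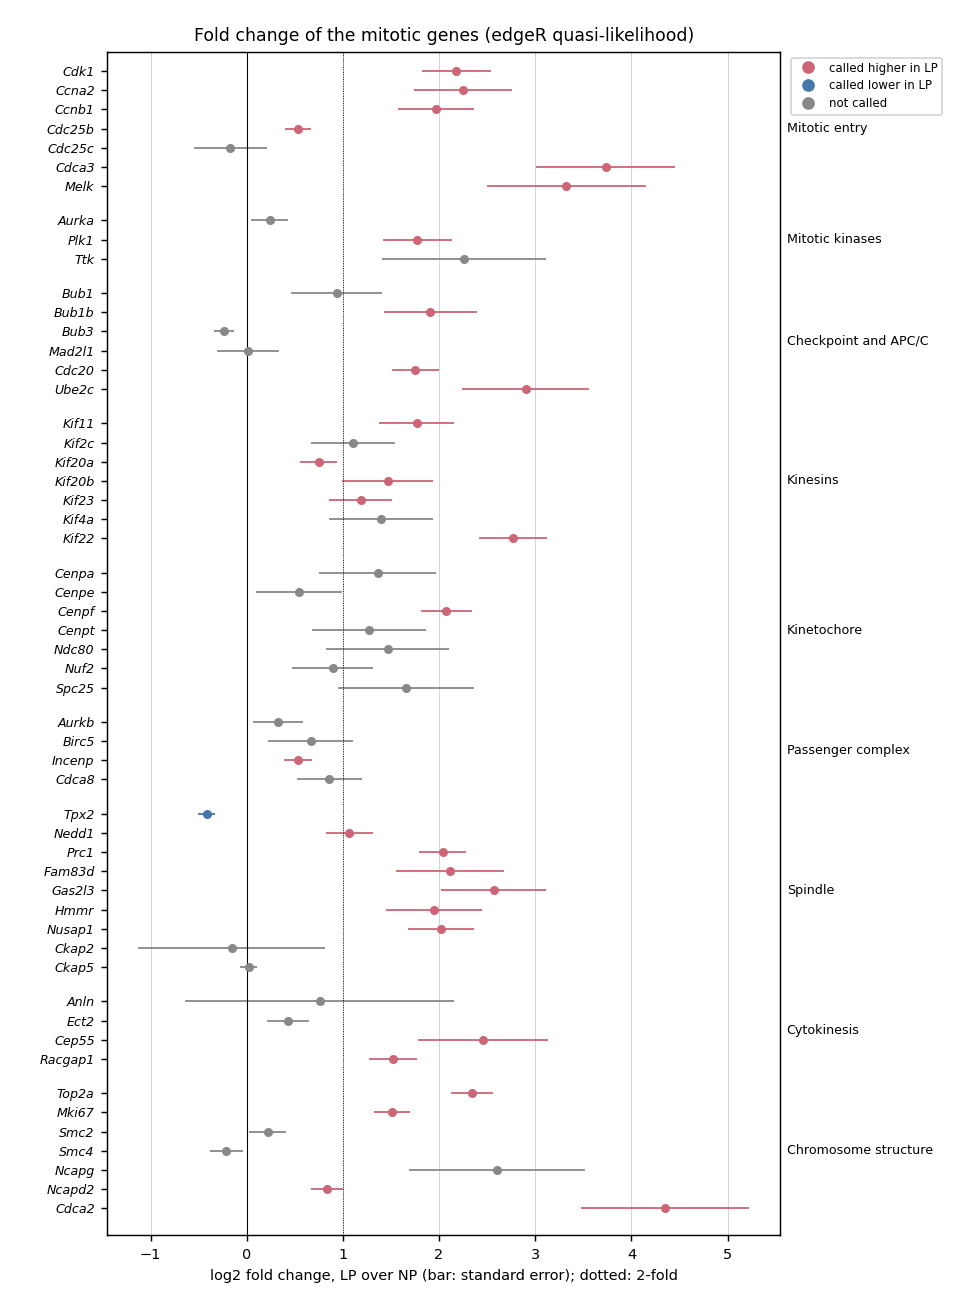
Log2 fold change of LP over NP for each of the 54 genes by role, with its standard error as a bar and the call by colour. Of these, 29 were called higher, Tpx2 was called lower and 24 were not called, and the dotted line marks a 2-fold change.

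The summed level of the 54 genes was 411.9 ± 1.24 CPM in NP and 593.6 ± 1.34 in LP (SD, n = 2 per group, per library total), a ratio of 1.44. The libraries ranged from 402.3 to 419.8 in NP and from 592.7 to 596.3 in LP. Tpx2, Ckap5 and Bub3 held the most reads, and without these 3 genes the sum went from 221.5 to 440.1, a ratio of 1.99. By role the ratio of summed levels was 2.71 in the kinetochore genes, of which Cenpf held 32 of 107 reads in NP and 154 of 329 in LP, and 2.44 in the kinesins. It was 1.93 for mitotic entry, 1.87 for cytokinesis, 1.74 for chromosome structure, 1.51 for the mitotic kinases, 1.41 for the passenger complex, 1.15 for the checkpoint and APC/C, and 1.06 for the spindle genes. In the last of these roles Tpx2 and Ckap5 carried most of the reads, so the sum hardly moved although 6 of its 9 genes were called higher.

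**Figure D4:**
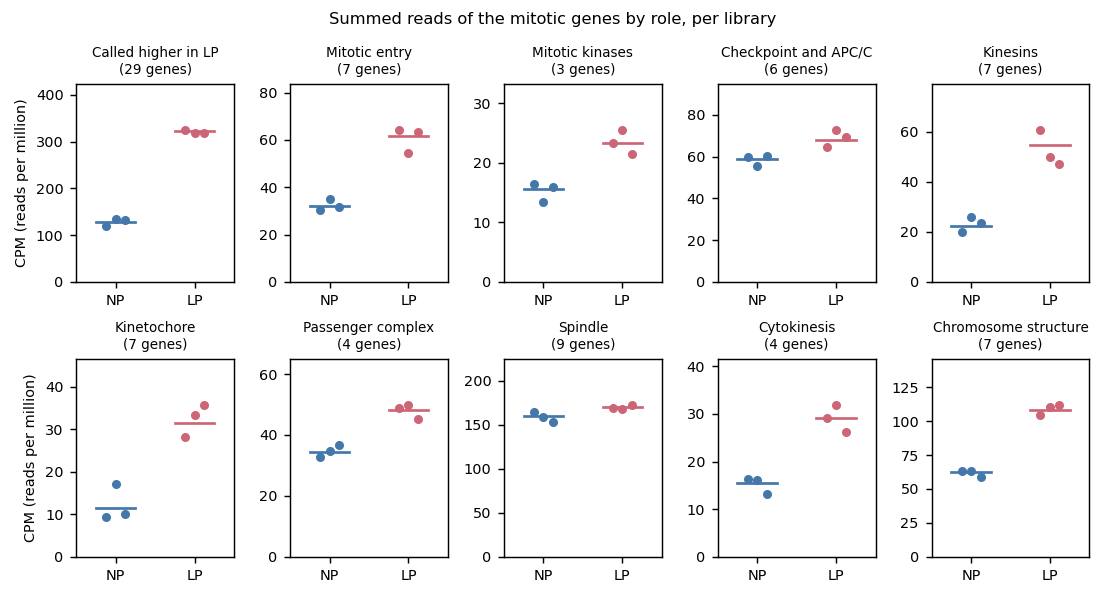
Summed CPM of the 29 genes called higher and of each role, with a point per library, a line at the group mean (replicates 2 and 3 counted once) and an axis from 0 that differs between panels. The 29 genes were selected by this comparison and so must separate, while the spindle role ranged from 152.5 to 163.9 in NP and from 167.8 to 172.3 in LP.

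Other genes of mitosis that were not in the list of 58 were examined in the same fit. Of 77 such genes 73 were present. Of these, 18 were called higher (24.7%, against 10.2% of all genes) and 2 lower (2.74%, against 7.28%). In 33 of the 73 genes (45.2%, against 18.2% of all genes) every LP library lay above every NP library. The median log2 fold change was 0.73. It was 0.70 with Depdc1 (no read in NP) at its bound and without Parpbp, whose reads were under the floor in both groups. DESeq2 tested 60 of the 73 genes and called 5 higher on the same samples, against 5.92% of all genes that it tested. Kif18b, a kinesin of astral microtubules, had 2, 5 and 7 reads in NP against 33, 28 and 34 in LP (log2 2.61, SE 0.372, adjusted p = 3.31e-05, edgeR). Kifc1, the minus-end motor of spindle poles, had 7, 19 and 7 reads in NP against 44, 51 and 50 in LP (log2 1.98, SE 0.271, adjusted p = 2.05e-05, edgeR). Troap, which has a role in spindle assembly, had 1, 2 and 1 reads in NP against 24, 16 and 19 in LP, a log2 fold change of 3.69 (SE 0.545, adjusted p = 5.14e-05, edgeR). Espl1, the separase that cuts cohesin at anaphase, had 3, 6 and 5 reads in NP against 25, 22 and 20 in LP (log2 2.11, adjusted p = 6.49e-04, edgeR). The other genes called higher were Dlgap5, Aspm, Cenph, Spc24, Kntc1, Ncaph, Stil, Tacc3, Depdc1, Iqgap3, Cit, Arhgap11a, Spag5 and Nde1. Depdc1 had no read in NP and 2, 6 and 4 in LP, which is at least 1.19-fold higher when each NP library is set at the floor of 3 reads.

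The genes called lower were Wee1 and Cdk5rap2. Wee1, the kinase that restrains Cdk1, had 117, 132 and 127 reads in NP against 78, 97 and 94 in LP (log2 −0.65, SE 0.116, adjusted p = 3.77e-04, edgeR). Cdk5rap2, a centrosomal scaffold, had 166, 152 and 183 reads in NP against 120, 104 and 118 in LP (log2 −0.71, SE 0.103, adjusted p = 4.3e-05, edgeR). In both genes every LP library lay below every NP library.

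Regulators, APC/C subunits and cohesin genes were read against the 10.2% of all genes called higher. Among 13 transcription factors and cofactors of late cell cycle genes, 1 was called higher (7.69%). This was Mybl2, the B-Myb factor, with 1 read in each NP library and 11, 18 and 9 in LP, and the ratio of 11.3 had a counting interval of 3.59 to 57.3 (adjusted p = 6.2e-04, edgeR). DESeq2 called none of the 13 on the same 4 samples and 1 on the 6 libraries. Foxm1, a forkhead activator of the same genes, had 17, 23 and 26 reads in NP against 28, 32 and 31 in LP (log2 0.32, SE 0.251, adjusted p = 0.464, edgeR). None of 12 structural APC/C subunits was called in edgeR's test, and 2 had an unadjusted p below 0.05, while DESeq2 called none. Their median log2 fold change was −0.14. Of 9 cohesin genes none was called higher by edgeR or DESeq2, and Stag2, the only one with an unadjusted p below 0.05 in edgeR, was called lower by edgeR, from 152, 196 and 190 reads to 126, 154 and 177 (log2 −0.40, SE 0.105, adjusted p = 0.0111, edgeR).

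Thyroid tissue holds several cell types, and lists of their markers were read beside the mitotic genes. All 9 follicular genes were detected. Tg, the thyroglobulin gene, had a log2 fold change of 0.05 (adjusted p = 0.143, edgeR). Slc5a5, the iodide transporter (log2 −0.94, adjusted p = 6.25e-09), and Tshr, the thyrotropin receptor (log2 −0.69, adjusted p = 1.91e-06), were called lower by edgeR, and Nkx2-1 (log2 0.29) and Duox2 (log2 0.29) higher. Skeletal muscle markers moved with pregnancy. Of 13 markers present 12 were called higher, and their sum ranged from 24.3 to 75.1 CPM in NP and from 4433 to 4674 in LP. Over 5 genes, markers of muscle progenitors, a cell type that can divide, summed to between 0 and 2.70 CPM in NP and between 10.2 and 12.8 in LP. Most of these were reads of Cdh15 (2, 5 and 0 in NP and 29, 29 and 29 in LP). Cdh15 and Pax7 were called higher by edgeR, and DESeq2 called 1 of the 5 genes. Pax7, Myf5 and Myod1 had no read in NP, and in LP Pax7 had 3, 5 and 3. Myf5 had 0, 3 and 2 reads in LP, and Myod1 had 1, 2 and 0. Megf10 had 2, 3 and 0 reads in NP against 1, 5 and 1 in LP. Myf5, Myod1 and Megf10 were not called (adjusted p = 0.212, 0.324 and 0.898, edgeR). The part of muscle cells in the mitotic result was not tested. Fitted without the skeletal muscle markers in the scaling, 29 members were again called higher and 1 lower. The scaling hardly moved, with a median log2 fold change of all genes of −0.008 against −0.012 in the main fit. All reads of the members stayed in that fit, so it does not bear on the part of muscle cells.

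Other cell types with dividing precursors gave smaller differences. The 7 T lymphocyte markers summed to 83 reads in NP against 58 in LP, with Cd5 at 0 in LP. None was called by edgeR (1 at an unadjusted p below 0.05) or DESeq2. The 4 B lymphocyte markers present summed to 141 reads in NP against 172 in LP, nearly all of them from Cr2. None was called by edgeR (0 at an unadjusted p below 0.05) or DESeq2. The 5 erythroid markers summed to 72 reads in NP against 117 in LP, or 7.44 to 9.08 and 11.3 to 11.9 CPM, and none was called by edgeR (1 at an unadjusted p below 0.05) or DESeq2. Macrophage markers ranged from 134.2 to 151.0 CPM in NP and from 143.8 to 167.4 in LP, with C1qa called higher among 6. Of 5 endothelial markers Kdr, Tek and Flt1 were called lower and Cdh5 and Vwf were not called, and the list summed to 570.1 to 577.4 CPM in NP and 434.8 to 451.3 in LP. No gene of the fibroblast list (1190 to 2155 CPM in NP, 1384 to 2305 in LP) or of the adipocyte list was called by edgeR (1 and 0 at an unadjusted p below 0.05) or DESeq2. The parathyroid list was mixed: Pth was called lower, while Gcm2 (log2 0.16) and Casr (log2 0.11) were not called. In the C cell list Calca was called lower and Scg2 higher, and Chga (log2 −0.02), Gfra4 (log2 0.20) and Ret (log2 0.10) were not called. In the airway list Scgb1a1 and Bpifa1 were called higher, and Tekt1 (log2 −0.79) and Krt5 (log2 −0.09) were not called. The thymocyte markers were not analysed here. The part of these cell types in the mitotic result was not tested.

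Promoter sequence was not itself used in the choice of genes, but the genes were chosen for a function whose promoters are known for the motifs below. The share of these motifs in the list is therefore a description and not independent evidence. Promoters of many late cell cycle genes carry the cell cycle genes homology region (CHR), which is bound by the DREAM and B-Myb complexes, near a box bound by the factor NF-Y. RefSeq promoter windows of the GRCr8 assembly, from 250 bases before to 50 after the annotated start, were found for 46 of the 54 genes and were searched on both strands for TTTGAA, the core of the CHR, and for CCAAT, the core of the NF-Y box. The motifs can share bases where they adjoin. For comparison between a called and an uncalled gene, the 120 bases before the start are shown for 5 of the genes called higher and for Ckap5, with TTTGAA and CCAAT of either strand in capitals (on the other strand they read TTCAAA and ATTGG). The windows are GRCr8 chr20:19265173-19265292 (plus strand) for Cdk1, chr5:137255800-137255919 (minus) for Cdc20, chr1:191080879-191080998 (minus) for Kif22, chr1:143659361-143659480 (plus) for Prc1, chr10:84473094-84473213 (minus) for Top2a and chr3:97946928-97947047 (plus) for Ckap5. Each is written 5′ to 3′ on the strand of the gene and ends at the base before the start.
Cdk1: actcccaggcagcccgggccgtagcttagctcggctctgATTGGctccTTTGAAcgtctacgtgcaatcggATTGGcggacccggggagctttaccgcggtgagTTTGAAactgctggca
Cdc20: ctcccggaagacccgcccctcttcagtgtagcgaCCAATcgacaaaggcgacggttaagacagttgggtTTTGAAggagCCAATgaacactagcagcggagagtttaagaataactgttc
Kif22: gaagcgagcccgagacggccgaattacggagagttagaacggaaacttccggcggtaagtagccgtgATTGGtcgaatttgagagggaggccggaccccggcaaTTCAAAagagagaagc
Prc1: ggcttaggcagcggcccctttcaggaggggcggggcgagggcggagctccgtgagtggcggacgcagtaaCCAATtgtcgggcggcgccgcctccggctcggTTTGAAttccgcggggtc
Top2a: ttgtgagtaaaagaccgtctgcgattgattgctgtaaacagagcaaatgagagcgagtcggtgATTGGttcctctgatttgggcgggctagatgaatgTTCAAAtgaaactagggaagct
Ckap5: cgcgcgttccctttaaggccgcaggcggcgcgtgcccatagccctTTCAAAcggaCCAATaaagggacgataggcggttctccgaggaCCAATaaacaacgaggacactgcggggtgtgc

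In 33 of the 46 promoters (71.7%) TTTGAA was present, against 12.0% of the 11102 promoters matched to counted genes and 18.1% of all 27457 promoters of the reference. CCAAT was present in 35 of 46 (76.1%), against 37.1% and 37.7%. Both occurred in 27 of 46 (58.7%), against 4.77% and 7.25%. The position of TTTGAA was also uneven. Of its 40 matches in the 46 promoters, 34 (85.0%) lay between 100 bases before and 50 after the start, against 38.9% of the matches in counted genes, and the median position was 36.5 bases before the start. For CCAAT the shares were 48.7% and 48.6%.

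The motifs occurred both in genes that were called and in genes that were not. TTTGAA was present in 16 of 24 promoters of genes called higher (66.7%) and in 17 of 22 of the rest (77.3%). CCAAT was present in 20 of 24 (83.3%) and in 15 of 22 (68.2%). Ckap5, which was not called, carries a TTTGAA and a pair of CCAAT matches in the window printed above, as Cdk1 and Cdc20 do. Among promoters of the other mitotic genes, TTTGAA was present in 29 of 62 (46.8%) and CCAAT in 33 of 62 (53.2%). These matches are descriptions of sequence, and binding of a factor was not measured.

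**Figure D5:**
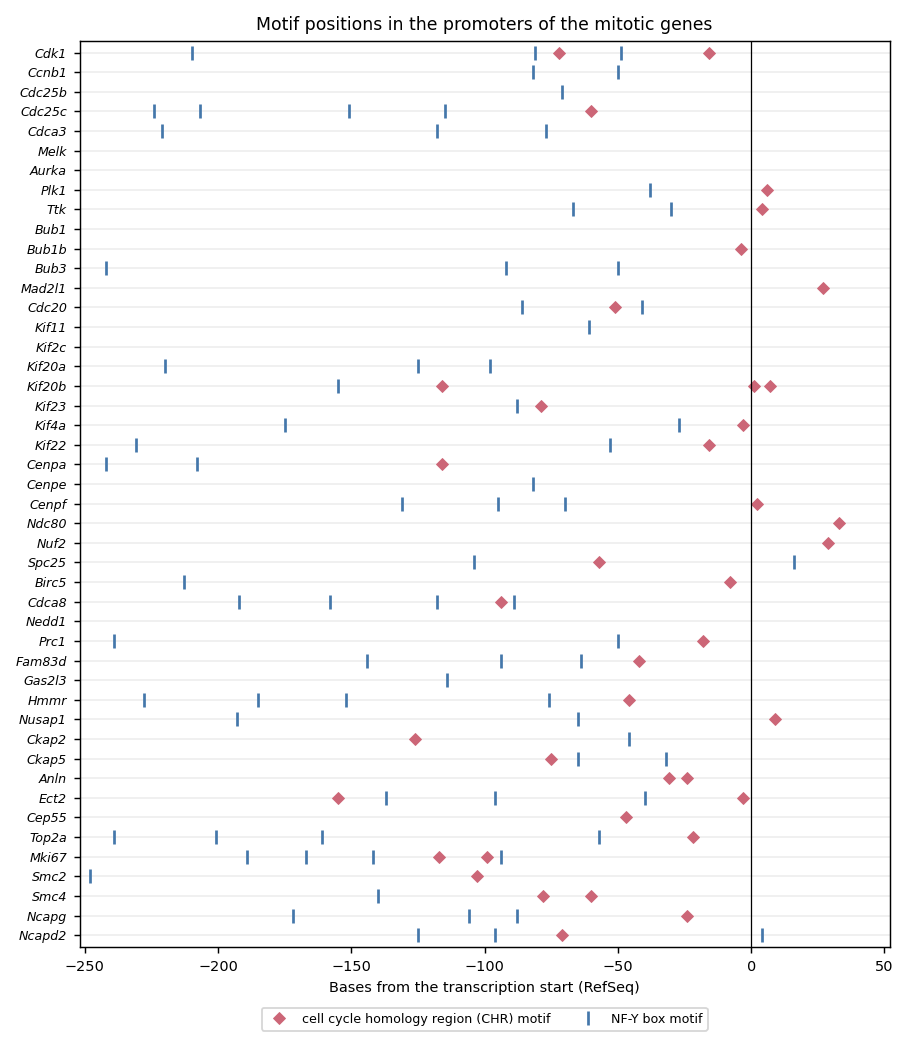
Position of every TTTGAA match (diamonds) and CCAAT match (vertical marks) in the 46 RefSeq promoters, in bases from the transcription start at 0. Diamonds gather close to the start, with 34 of 40 between 100 bases before and 50 after the start, while the marks spread over the window.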

How the data were processed

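Reads of RNA-seq libraries of thyroid tissue (RNA integrity of 7 or more per the labels) were aligned by the authors with TopHat 1.4.0 to the rat genome rn5 and counted with HTSeq on the annotation of Ensembl release 81. The deposited files hold raw counts, whole numbers of reads per transcript with a gene symbol, and the strand setting is not given in the sources used here, so reads of overlapping genes may not be separable. Members and lists were chosen with earlier results of these data known. Counts of replicates 2 and 3 of each group were summed (chi-square over genes, p = 0.111 in NP and p = 0.667 in LP), and edgeR 4.0.16 in R 4.3.3 was run with TMM scaling, no filter on low counts and the quasi-likelihood test. The biological coefficient of variation was 0.0782. No blocking was used. Members with a mean of 10 or more reads or an adjusted p below 0.05 were named with values, and the others with values or by range. Counting intervals are exact Clopper-Pearson at 95%, and like the floor of 3 reads (0.87 to 1.09 CPM) they cover counting error only. Alternatives were DESeq2 1.42.0, other scalings, filters and thresholds, the 6 libraries as deposited, a replicate block and each library left out. Leaving out a replicate 1 left its group with 1 sample, so no p-value of those fits is given. The fit was tested on simulated data. Same-numbered NP and LP libraries deviated together (r = 0.482, 0.215 and 0.182 across 11680 genes). Deviations were taken from the group mean, so replicates 2 and 3, which are nearly alike, both deviate opposite to replicate 1. The values for replicates 2 and 3 therefore follow in large part from that of replicate 1. The numbers, which come from the labels, were taken as pairs in the replicate block alone and not in the main fit. With that block the biological coefficient of variation was 0.0162. NP replicate 2 with LP replicate 3 and NP replicate 3 with LP replicate 2 gave 0.210 each, so the numbers 2 and 3 cannot be told apart.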

Additional observations from a re-analysis of the deposited data

How the results depend on the processing

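With the replicate block, in which same-numbered libraries are paired, 29 members were called higher, 1 lower and 25 with a fold above 2, and the block changed no call of a named member. Calls rested most on the tool and on depth. DESeq2 on the same 4 samples called 9 members higher, 0 lower and 9 with a fold above 2, and 5 other mitotic genes higher and 1 lower. DESeq2 on the 6 libraries as deposited, chosen after seeing the data, called 10 of the 66 other mitotic genes that it tested higher. The members called in every alternative that tested them (the 50-read filter left only Mki67 of these) were Cdk1, Cdc20, Kif22, Cenpf, Prc1, Nusap1, Racgap1, Top2a and Mki67. With a filter at 10 mean reads, 18 of 31 members were called higher, 14 with a fold above 2, and the median was 0.86. At 50 reads, where 8 members were tested, these were 4, 1 and 0.30, with 1 of 11 other mitotic genes higher. Fewer members were left in each fit by construction. Tested against a fold of 1.5, 18 members were higher and 0 lower, and 8 of 73 other mitotic genes higher and 0 lower. At an adjusted p below 0.01, 10 of 73 other mitotic genes were higher. The ratio of summed levels was 1.51 with TMM scaling and 1.99 without the 3 members with the most reads. Leaving out replicate 2 or 3 of a group gave 26 to 29 members higher and 22 to 24 with a fold above 2. Of the genes tested in each setting, 11.7% were called higher with the block, 5.92% with DESeq2 and 8.53% with DESeq2 on 6 libraries. The share was 12.7% and 15.6% with filters at 10 and 50 reads, 3.83% against a fold of 1.5 and 7.54% at adjusted p below 0.01. Without replicate 2 or 3 of a group it was 9.18% to 9.85%. Among uncalled genes the log2 fold change changed sign with a library left out for Cdc25c (−0.51 to 0.28), Mad2l1 (−0.067 to 0.14), Cenpe (−0.096 to 1.23) and Ckap5 (−0.021 to 0.061). With library totals alone it was −0.046 for Mad2l1 and −0.041 for Ckap5, and with DESeq2 −0.018 for Mad2l1. Library totals alone moved the median of all genes to −0.07. Where not stated, the cause was not tested.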
